A study of Homo sapiens with 6 samples.

Results

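The genes described here are 44 genes of glycolysis, of the fate of pyruvate and of the response to low oxygen, out of 26485 gene symbols in the table. They were matched by symbol, and all 44 were found. RNA came from 6 EndoC-βH1 cultures. EndoC-βH1 is a human line with a beta cell phenotype that was derived from fetal pancreas. All cultures carried the lentiviral vector lentiCRISPRv2, which brings the Cas9 nuclease and an antibiotic resistance gene, and were kept as antibiotic-selected stable lines. In the 3 libraries called Empty (genotype label WT) the vector held no guide, and in the 3 called sgZHX3-3 (genotype label ZHX3 KO) it held 1 guide against the first coding exon of the zinc-finger homeobox gene ZHX3. Each group has biological replicates numbered 1 to 3, and no label says whether they are separately made lines, so the p-values may measure only the spread between cultures of a line. The question was how RNA levels differ after targeting of ZHX3.

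In glycolysis a glucose molecule is phosphorylated, split and oxidised to pyruvate. Beta cells are known for sending most pyruvate into mitochondria, and for keeping lactate dehydrogenase A, the monocarboxylate carrier SLC16A1 and hexokinases HK1 and HK2 low, so that the rate of glucose use follows blood glucose. Under low oxygen, prolyl hydroxylases of the EGLN family stop marking hypoxia-inducible factors for destruction. These factors raise many glycolytic genes along with VEGFA, BNIP3 and P4HA1 through DNA sites that often hold the core letters ACGTG.

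The libraries held 45101454 to 61051884 counts. ZHX3 RNA was not lower in the libraries labelled sgZHX3-3: it was at 105 ± 4.19 CPM (counts scaled to the library size; SD, n = 3) in Empty and at 177 ± 8.62 CPM (SD, n = 3) in sgZHX3-3 (log2 fold change 0.75, SE 0.0566, edgeR adjusted p = 1.62e-05). Each direction given here is therefore drawn from the labels alone, and the protein was not analysed here. All 10 beta cell markers of a fixed list were expressed in each library, INS at 5206 CPM or more. Of the 10, 7 were called higher in sgZHX3-3 by edgeR's quasi-likelihood test at an adjusted p below 0.05, against 7.11% of all genes tested. The 10 summed to 10205, 8488 and 8350.4 CPM in Empty 1, 2 and 3 and to 10122 to 11594 CPM in sgZHX3-3. Most of that sum is INS, which was not called (log2 fold change 0.19, edgeR adjusted p = 0.219). The mean log2 deviation of the 10 from the mean of all libraries was −0.03, −0.24 and −0.26 in Empty 1, 2 and 3. It was 0.15, 0.18 and 0.21 in sgZHX3-3. Of the defining markers of other cell types, all 4 endothelial genes, 5 of 6 acinar genes and 3 of 4 immune genes were below 1 CPM in every library; the exceptions were CPA1 (33.1 to 45.2 CPM, called higher by edgeR with 0.31 on the log2 scale, adjusted p = 0.0145) and CD68 (12.3 to 21.1 CPM). Glucagon (GCG) was below 1 CPM, although the other alpha cell genes of the list were detected. Of the alpha cell genes, LOXL4 was called higher (0.51, edgeR adjusted p = 0.00126) and IRX2 lower (−0.34, 0.00728). Also detected were the ductal genes KRT19 (47.6 to 54.7 CPM) and SOX9 (13.4 to 19.1 CPM), the delta cell genes SST (5.95 to 9.96 CPM) and RBP4 (4.92 to 8.73 CPM) and the collagen gene COL1A1 (5.12 to 7.85 CPM). Of these 5, RBP4 was called higher (0.60, edgeR adjusted p = 0.00443). The part of these markers in the results was not tested. Of 9 targets of the oxidative stress factor NRF2, 8 were called lower in sgZHX3-3 by edgeR (88.9%, against 4.98% of all genes tested), 5 of 9 by limma-voom, and 5 of 9 by edgeR with Empty 2 and 3 left out. The 9 genes summed to 1127, 1717 and 1801 CPM in Empty 1, 2 and 3 and to 884, 870.3 and 753 CPM in sgZHX3-3 libraries 1, 2 and 3. A list of 9 heat shock genes summed to 4308, 5677 and 6112 CPM in Empty and to 4607, 4823 and 4129.7 CPM in sgZHX3-3. Empty 2 and 3 were highest for both lists, and Empty 1 also lay above each sgZHX3-3 library for the NRF2 targets. Hence the value of each of the 8 called genes of the 44 without these 2 libraries is given with it.

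The promoter sequences of 4 genes are shown because they carry the letters that tie glycolytic genes to the oxygen response, and because their RNA did not move alike. LDHA, ALDOA and P4HA1 were lower in sgZHX3-3, while PGK1, which has 2 of these cores, did not pass the test. Each is the 250 bases before the start given by RefSeq (GRCh38.p14), 5′ to 3′ in the direction of the gene, with ACGTG or its reverse complement in capitals. They lie at chr11:18394313-18394562 on the plus strand (LDHA), chr16:30064029-30064278 on the plus strand (ALDOA), chr10:73096867-73097116 on the minus strand (P4HA1) and chrX:78103998-78104247 on the plus strand (PGK1).
LDHA: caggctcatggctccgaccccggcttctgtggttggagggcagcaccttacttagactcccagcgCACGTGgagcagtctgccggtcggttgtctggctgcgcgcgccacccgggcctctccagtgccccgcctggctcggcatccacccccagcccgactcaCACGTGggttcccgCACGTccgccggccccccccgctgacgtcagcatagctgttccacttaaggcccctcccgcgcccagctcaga
ALDOA: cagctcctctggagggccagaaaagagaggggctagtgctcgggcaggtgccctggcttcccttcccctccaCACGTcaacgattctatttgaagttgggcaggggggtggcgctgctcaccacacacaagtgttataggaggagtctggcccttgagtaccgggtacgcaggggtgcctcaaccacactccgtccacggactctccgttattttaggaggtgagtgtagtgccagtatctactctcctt
P4HA1: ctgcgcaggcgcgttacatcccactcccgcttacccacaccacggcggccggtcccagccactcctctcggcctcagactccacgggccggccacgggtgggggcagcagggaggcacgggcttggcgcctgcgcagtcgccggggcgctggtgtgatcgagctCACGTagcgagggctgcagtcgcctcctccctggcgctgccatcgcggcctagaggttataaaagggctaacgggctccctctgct
PGK1: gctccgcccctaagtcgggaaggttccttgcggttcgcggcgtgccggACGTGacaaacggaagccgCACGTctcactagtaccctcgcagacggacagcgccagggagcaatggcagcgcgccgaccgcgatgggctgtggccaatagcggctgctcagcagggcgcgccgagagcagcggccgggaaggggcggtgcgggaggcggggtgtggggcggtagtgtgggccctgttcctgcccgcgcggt

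In LDHA the core stands in 3 places, of which those beginning 185 and 87 bases before the start are the palindrome CACGTG and count on both strands. ALDOA and P4HA1 hold it once, beginning 178 and 86 bases before the start. The promoter table held 39 of the 44 genes, without PFKFB2, SLC16A1, GPD1, VEGFA and NDRG1. On either strand ACGTG was found in 16 of those 39 promoters (41.0%), against 22.8% of 11548 promoters of the genes tested and 18.5% of all 35116 promoters of this length. Of the 16 genes with it, 3 were called by edgeR, namely LDHA, ALDOA and P4HA1. Called by edgeR were 18.6% of the 43 tested genes of the 44 and 12.1% of all genes tested. HK2, GPI, ALDOC, GAPDH, PGK1, ENO2, PDHB, PDK3, PC, EGLN1, BNIP3 and ANKRD37 did not pass, and CA9 was not tested. The longer palindrome CACGTG, which contains ACGTG, was in 6 of 39 (15.4%) against 8.73% of the promoters of tested genes. The letters CCAAT, bound by NF-Y, with which ZHX proteins associate, were in 17 of 39 (43.6%) against 34.4%. Of the called genes, the promoter table held all 4 lower ones but only 1 higher one, SLC16A3. Among these promoters CCAAT was in that of PDK4 alone, and the SLC16A3 promoter held neither CCAAT nor ACGTG. The higher and lower genes can therefore not be compared for these letters. These counts describe letters in a short window, cover no other form of the sites and were not tested.

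Most of the 44 genes were not called different between the groups. One, CA9, did not pass the filter on low counts; of the 43 tested, 4 were higher and 4 lower in sgZHX3-3 by edgeR's quasi-likelihood test at an adjusted p below 0.05. The higher genes were the cytosolic glycerol phosphate dehydrogenase GPD1, VEGFA, the lactate exporter SLC16A3 and the phosphofructokinase activator enzyme PFKFB2. The lower ones were P4HA1, LDHA, PDK4 and ALDOA. As a share of those tested this was 18.6%, with 9.30% in each direction. Of all 16199 genes tested 12.1% were called, 7.11% higher and 4.98% lower. The median absolute log2 fold change was 0.13 both for the 43 genes and for all genes, and the medians were −0.04 and −0.00. The groups did not overlap for 19 of 43 genes (44.2%) against 32% of all tested genes. With libraries scaled by their totals alone, which moved the median of all genes to −0.04, 3 of the genes were higher and 7 lower (904 and 1272 of all genes, against 1151 and 807 with TMM scaling). With trends in transcript length and GC content removed, 4 were higher and 7 lower. The 4 higher ones were then GPD1, VEGFA, LDHB and PDK3, without PFKFB2 and SLC16A3.

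**Figure D1:**
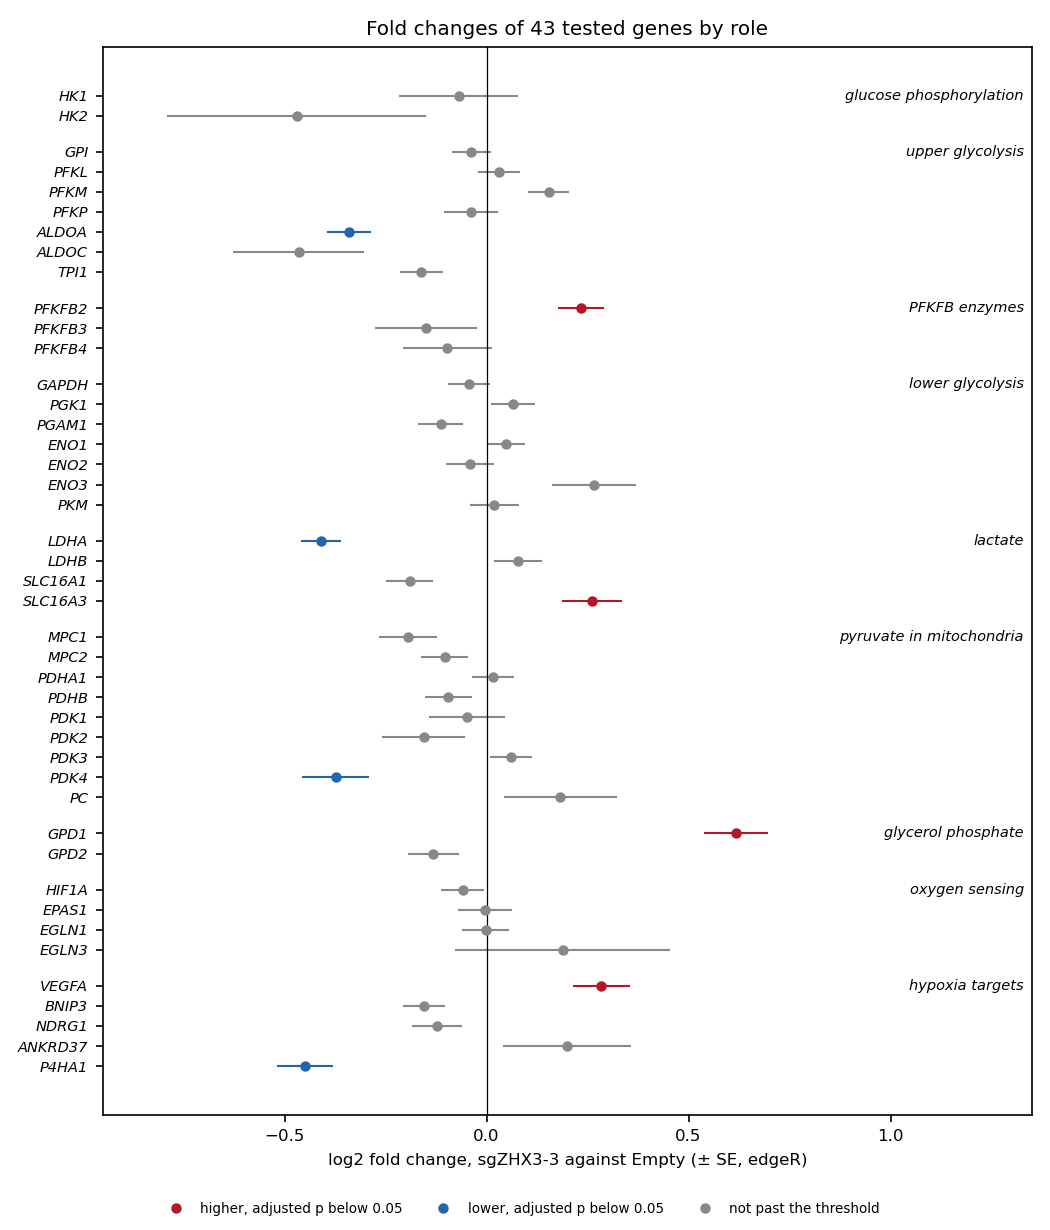
Log2 fold change of each of 43 tested genes (points) with its edgeR standard error (bars), by role; the horizontal axis is sgZHX3-3 against Empty. The 4 genes in red and the 4 in blue passed the test, and GPD1 lies farthest to the right at 0.62.

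Neither HK1 nor HK2, which phosphorylate glucose, passed the test. HK1, a hexokinase normally low in beta cells, was at 2.2, 2.5 and 2.53 CPM in Empty and at 2.19, 2.15 and 2.54 CPM in sgZHX3-3. HK2, the insulin-responsive hexokinase of muscle and fat, had 25, 32 and 24 counts in Empty and 10, 18 and 31 in sgZHX3-3, so its groups overlapped at a low level. Their log2 fold changes were −0.07 (SE 0.147, edgeR adjusted p = 0.802) and −0.47 (SE 0.320, adjusted p = 0.37).

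In the first stage of glycolysis, which turns glucose phosphate into triose phosphates, edgeR called 1 of 7 genes lower and none higher. This was 14.3% called, beside 12.1% of all genes tested. DESeq2 also called PFKM higher. The lower gene was ALDOA, the main aldolase, which splits the phosphorylated sugar (ENSG00000149925.18, chromosome 16 from 30064164 to 30070457, plus strand, hg38). Its levels were 239, 242 and 253 CPM in Empty and 183, 193 and 204 CPM in sgZHX3-3. All Empty libraries lay above all sgZHX3-3 libraries. The log2 fold change was −0.34 (SE 0.0547, edgeR adjusted p = 0.00188), a fall of 21% in the fitted level. Dropping both Empty 2 and Empty 3 ended the call (−0.31, adjusted p = 0.0908), a fit in which the lone Empty library is assumed to vary like the others. Its neural paralog ALDOC, far lower at 3.80 to 5.56 CPM in Empty and 2.81 to 3.63 CPM in sgZHX3-3, was at −0.46 (SE 0.162, adjusted p = 0.0799). ALDOC made up only 2.11% ± 0.368 (SD, n = 3) of the length-scaled aldolase level (CPM divided by exon length, summed over both genes) in Empty and 1.94% ± 0.218 (SD, n = 3) in sgZHX3-3.

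The other upper glycolysis genes had small values. TPI1, which interconverts the triose phosphates, was at 443 to 499 CPM in Empty and 415 to 425 CPM in sgZHX3-3, a log2 fold change of −0.16 (SE 0.0543, edgeR adjusted p = 0.072). It passed with library totals alone (−0.20, adjusted p = 0.0282) and with the trends in length and GC content removed (−0.19, 0.00924). The phosphofructokinase subunit PFKM, of the muscle type, was at 101 to 104 CPM in Empty and 111 to 115 CPM in sgZHX3-3. At 0.15 (adjusted p = 0.0638) it passed without Empty 1 (0.0322) and with DESeq2 (0.0486). Its counts are uncertain where it overlaps SENP1 on the other strand. The liver-type PFKL (0.03), the platelet-type PFKP (−0.04) and the isomerase GPI (−0.04) had adjusted p of 0.75, 0.747 and 0.658. Within the length-scaled phosphofructokinase level, PFKM took 39.8% ± 0.474 (SD, n = 3) in Empty and 42.1% ± 0.284 (SD, n = 3) in sgZHX3-3, without overlap. Whether PFKL or PFKM is the more abundant depends on the transcript length used.

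PFKFB2, of the enzyme family that makes and removes the activator of phosphofructokinase, was higher in sgZHX3-3. It lies on chromosome 1 from 207034366 to 207081024 (plus strand, hg38). Its levels were 126, 117 and 118 CPM in Empty and 134, 141 and 149 CPM in sgZHX3-3, and the groups did not overlap although Empty 1 came close. The log2 fold change was 0.23 (SE 0.0574, edgeR adjusted p = 0.0205). It no longer passed on dropping Empty 2 (adjusted p = 0.102), Empty 3 (0.107), sgZHX3-3 library 2 (0.0954) or sgZHX3-3 library 3 (0.0588), with the trends in length and GC content removed (0.112) and with Empty 2 and 3 both left out (0.17, 0.38). YOD1 shares exon bases with PFKFB2 on the other strand and was itself at −0.20 (adjusted p = 0.0799). The sources used here do not give the strand setting, so PFKFB2 is uncertain to that extent. The hypoxia-inducible family members PFKFB3 (5.31 to 6.97 CPM in Empty, 5.19 to 6.33 CPM in sgZHX3-3) and PFKFB4 (13.9 to 17.3 CPM and 12.8 to 16.3 CPM) did not pass, with log2 fold changes of −0.15 (adjusted p = 0.48) and −0.10 (adjusted p = 0.61). PFKFB2 made up 71.0% ± 1.32 (SD, n = 3) of the length-scaled level of the 3 enzymes in Empty and 75.6% ± 1.02 (SD, n = 3) in sgZHX3-3.

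None of the 7 genes of lower glycolysis, which carries triose phosphate to pyruvate, passed in either direction with edgeR, DESeq2 or limma-voom, and 1 was below an unadjusted p of 0.05. GAPDH, the dehydrogenase of this pathway and the gene of the 44 with the highest level per length, was at 1186, 1230.2 and 1271 CPM in Empty and 1198, 1225 and 1155 CPM in sgZHX3-3. The kinase PGK1, whose promoter is shown above, was at 223 to 249 CPM and 240.4 to 248 CPM, a log2 fold change of 0.06 (SE 0.0545, edgeR adjusted p = 0.478). Its groups overlapped through Empty 1. The mutase PGAM1 (−0.11, adjusted p = 0.202), the enolase ENO1 (0.05, 0.545) and the pyruvate kinase PKM (0.02, 0.87) likewise did not pass. The neuronal enolase ENO2 was at −0.04 (0.704). The muscle enolase ENO3, at 6.30 to 7.27 CPM in Empty and 7.85 to 9.11 CPM in sgZHX3-3, was at 0.27 (SE 0.104, adjusted p = 0.115, unadjusted p = 0.0241). Its counts are uncertain where it overlaps PFN1 on the other strand. Reads of GAPDH, BNIP3, PGAM1 and LDHA can match pseudogenes, of which GENCODE 29 names 62, 39, 13 and 6 after these genes, and the sources used here do not say how reads with several matches were counted.

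**Figure D2:**
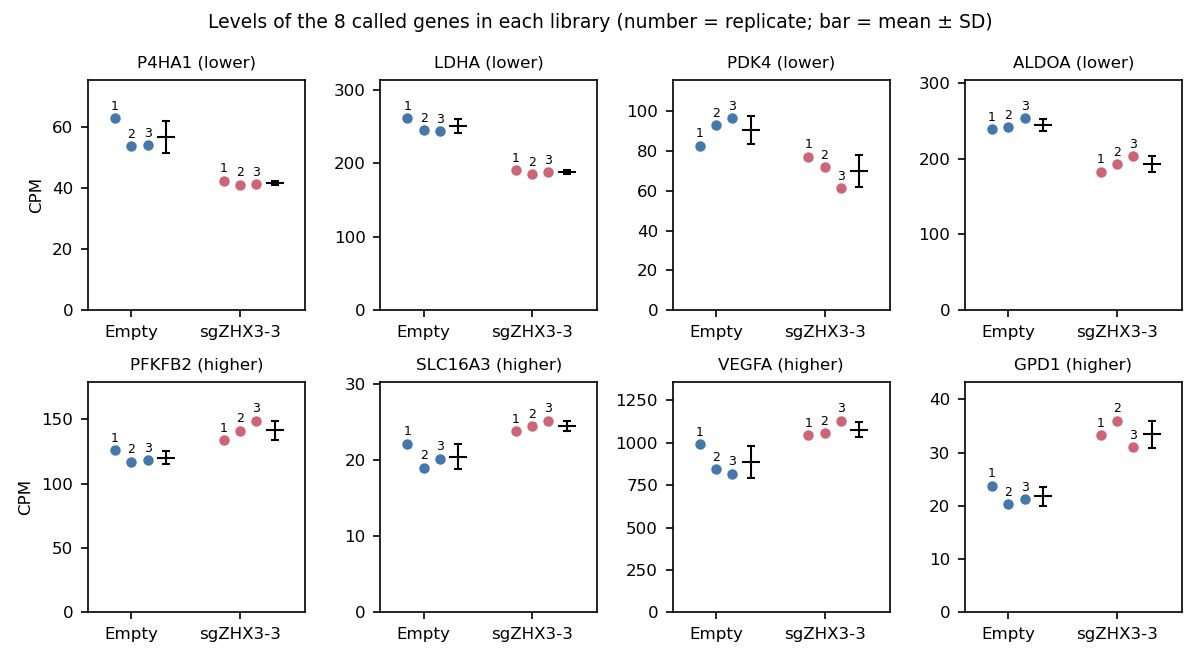
CPM of the 8 called genes (panels) in each library (points, numbered by replicate), with the mean and SD of each group of 3 beside them; all vertical axes start at 0. In each panel the sgZHX3-3 points lie wholly below (upper row) or above (lower row) the Empty points, and LDHA at 186 to 191 CPM is clear of the Empty range of 244 to 261 CPM.

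Of the 4 genes for making and moving lactate, LDHA was lower and SLC16A3 higher. LDHA encodes the lactate dehydrogenase subunit that favours turning pyruvate into lactate (ENSG00000134333.13, chromosome 11 from 18394388 to 18408425, plus strand, hg38). It was at 261, 245 and 244 CPM in Empty and 191, 186 and 188 CPM in sgZHX3-3. Empty 1, the control library with the lowest NRF2 and heat shock levels, had the highest LDHA. The log2 fold change was −0.41 (SE 0.0504, edgeR adjusted p = 0.000358), a fall of 24.7%. This call held in each of 16 alternative analyses, with values from −0.47 to −0.32, and was −0.47 (adjusted p = 0.0107) when both Empty 2 and Empty 3 were dropped.

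LDHB, the subunit that favours the reverse reaction, was at 148, 142 and 149 CPM in Empty and 157, 164 and 143 CPM in sgZHX3-3. At 0.08 (SE 0.0589, edgeR adjusted p = 0.418) it did not pass, although it did with the trends in length and GC content removed (0.15, 0.0432). Within the summed length-scaled level of the pair, LDHA took 48.5%, 47.9% and 46.7% in the Empty libraries and 39.4%, 37.7% and 41.3% in the sgZHX3-3 libraries. The LDHA share thus went from 47.7% ± 0.932 (SD, n = 3) to 39.4% ± 1.82 (SD, n = 3) without overlap. With the length of the longest transcript the mean share was 52.1% in Empty and 43.7% in sgZHX3-3, again without overlap. Which subunit is the more abundant in Empty therefore depends on the transcript length used. With 3 libraries against 3 an exact permutation test cannot go below 0.10, so shares are given without a test.

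The 2 carriers that move lactate across the cell membrane had values of opposite sign. SLC16A3, the carrier of glycolytic cells, was at 22.2, 19.0 and 20.2 CPM in Empty and 23.8, 24.5 and 25.2 CPM in sgZHX3-3, a log2 fold change of 0.26 (SE 0.0741, edgeR adjusted p = 0.0374). The groups lay side by side without overlap. Its call was lost in 10 of 16 alternatives, among them without any library other than Empty 1 (adjusted p from 0.0562 to 0.176), with library totals alone (0.23, 0.0579), with the length and GC trends removed (0.12, 0.196) and with Empty 2 and 3 both left out (0.15, 0.546). It shares exon bases with CSNK1D on the other strand, which was at 0.03 (adjusted p = 0.813). SLC16A1, the carrier known to be shut off in beta cells, was at 84.1, 84.6 and 88.0 CPM in Empty and 79.6, 74.8 and 70.6 CPM in sgZHX3-3. Its log2 fold change of −0.19 (SE 0.0585, adjusted p = 0.0511) missed the threshold narrowly and passed in 8 of 16 alternatives (adjusted p from 0.0273 to 0.0492). SLC16A3 took 17.8% ± 1.28 (SD, n = 3) of the length-scaled level of the pair in Empty and 22.8% ± 1.54 (SD, n = 3) in sgZHX3-3. Although this cell line is a beta cell model, LDHA and SLC16A1 RNA was at 70.6 CPM or more in each library, while HK1 and HK2 stayed below 3 CPM.

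Pyruvate that enters mitochondria is carried by MPC1 and MPC2, oxidised by pyruvate dehydrogenase or carboxylated by PC. In this group of 9 genes edgeR called 1 lower and none higher (11.1% called, beside 12.1% of all genes tested). PDK4, a kinase that switches pyruvate dehydrogenase off in fasting, lies on chromosome 7 from 95583499 to 95596491 (minus strand, hg38). It was at 82.7, 93.0 and 96.5 CPM in Empty and 77.3, 71.8 and 61.3 CPM in sgZHX3-3. Empty 1 and sgZHX3-3 library 1 were the nearest libraries of the 2 groups. The log2 fold change was −0.37 (SE 0.083, edgeR adjusted p = 0.0133), and the call was lost without Empty 2 (adjusted p = 0.0569) or Empty 3 (0.0717). With both left out the value was −0.24 (0.362).

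The other kinases of pyruvate dehydrogenase did not pass. PDK3, the most abundant of them per length, was at 206 to 221 CPM in Empty and 217 to 227 CPM in sgZHX3-3 (log2 fold change 0.06, edgeR adjusted p = 0.482), and passed with length and GC trends removed (0.15, 0.0306). The hypoxia-inducible PDK1 (19.8 to 25.9 CPM over all libraries) was at −0.05 (0.782) and PDK2 (12.1 to 16.7 CPM) at −0.16 (0.353). Among the 4 kinases PDK3 took 73.1% ± 1.26 (SD, n = 3) of the length-scaled level in Empty and 78.0% ± 1.21 (SD, n = 3) in sgZHX3-3, while PDK4 took 20.7% to 23.6% in Empty and 15.7% to 18.5% in sgZHX3-3. Neither share overlapped between the groups.

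The enzyme subunits and carriers themselves had smaller values. The pyruvate dehydrogenase subunits PDHA1 (log2 fold change 0.02, edgeR adjusted p = 0.873) and PDHB (−0.09, 0.316) did not pass. MPC1 was at 38.8 to 41.6 CPM in Empty and 31.5 to 37.2 CPM in sgZHX3-3 (−0.20, SE 0.0721, adjusted p = 0.0969), and MPC2 was at −0.10 (0.274). PC, which feeds pyruvate into the citric acid cycle as oxaloacetate and is abundant in beta cells, was at 29.5, 21.6 and 21.3 CPM in Empty and 24.3, 25.4 and 32.2 CPM in sgZHX3-3. Empty 1 and sgZHX3-3 library 3 were the high libraries, 1 in each group. PC was at 0.18 (SE 0.14, adjusted p = 0.437) with all libraries and at 0.35 (0.0357) without Empty 1.

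**Figure D3:**
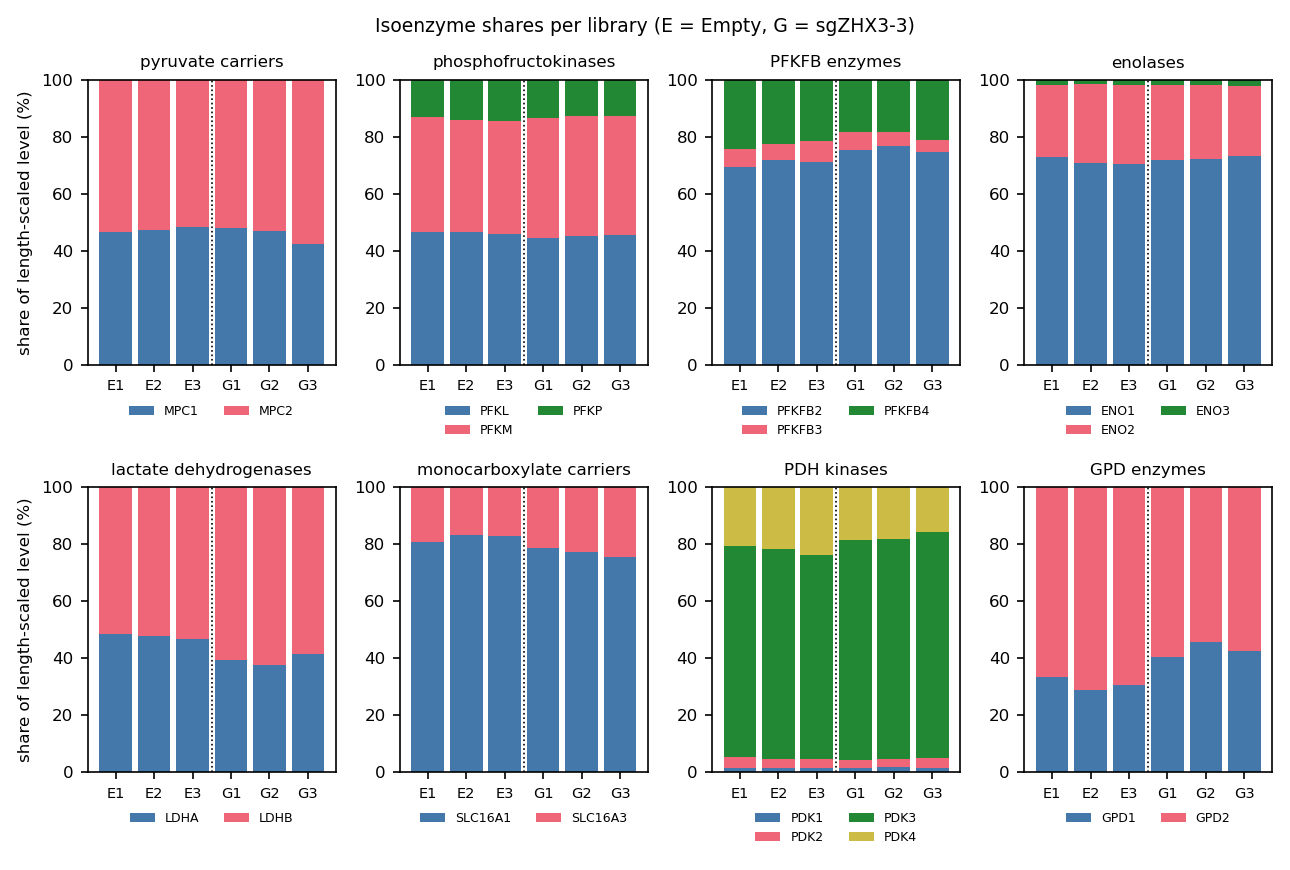
Share of each isoenzyme in the summed length-scaled level of its family (vertical axis, percent) in the 6 libraries (bars), for 8 families; E stands for Empty and G for sgZHX3-3. The LDHA share is 46.7% to 48.5% in Empty and 37.7% to 41.3% in sgZHX3-3, and the GPD1 share is 28.7% to 33.3% and 40.5% to 45.5%.

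The glycerol phosphate shuttle passes electrons from glycolysis to the respiratory chain through the cytosolic enzyme GPD1 and the mitochondrial enzyme GPD2. GPD1 had the largest rise of the 44 genes (ENSG00000167588.12, chromosome 12 from 50103819 to 50111319, plus strand, hg38). It was at 23.8, 20.3 and 21.3 CPM in Empty and 33.3, 36.0 and 31.0 CPM in sgZHX3-3, well apart. Its log2 fold change was 0.62 (SE 0.0797, edgeR adjusted p = 0.000497), a rise of 53.4%. The call held with any 1 library left out (0.56 to 0.69) and ended on dropping both Empty 2 and Empty 3 (0.49, adjusted p = 0.0586). GPD2, which is abundant in beta cells, was at 97.7, 104 and 99.8 CPM in Empty and 100.3, 88.5 and 86.2 CPM in sgZHX3-3 (−0.13, SE 0.0637, adjusted p = 0.198). GPD1 took 30.8% ± 2.32 (SD, n = 3) of the summed length-scaled level of the pair in Empty and 42.8% ± 2.52 (SD, n = 3) in sgZHX3-3.

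None of the 4 oxygen-sensing regulators passed with edgeR, DESeq2 or limma-voom, and none was below an unadjusted p of 0.05. HIF1A, an oxygen-labile subunit of the hypoxia-inducible factors, was at 232, 236 and 235 CPM in Empty and 240.1, 218 and 217 CPM in sgZHX3-3 (log2 fold change −0.06, SE 0.0538, edgeR adjusted p = 0.511). EPAS1, its paralog, averaged 186 CPM ± 15.2 (SD, n = 3) over Empty libraries and 185 CPM ± 11.3 (SD, n = 3) over sgZHX3-3 libraries (−0.00, SE 0.0668, 0.977). The hydroxylase EGLN1 was at 70.4 to 79.2 CPM and 73.2 to 75.0 CPM (−0.00, SE 0.0575, 0.986). EGLN3, which hypoxia induces, was at 0.439 to 0.626 CPM over all libraries (0.19, SE 0.266, 0.693). The groups overlapped for all 4 genes, and these factors are known to be set by protein stability, which was not measured.

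Known hypoxia target genes were split in direction. P4HA1, a subunit of the collagen prolyl hydroxylase, was lower (ENSG00000122884.12, chromosome 10 from 73007217 to 73096974, minus strand, hg38). It was at 62.7, 53.5 and 53.8 CPM in Empty and 42.3, 41.0 and 41.2 CPM in sgZHX3-3, with Empty 1 the highest of all. This was a log2 fold change of −0.45 (SE 0.0683, edgeR adjusted p = 0.00136), a fall of 26.8%. Like that of LDHA, its call held in each of 16 alternatives, from −0.59 to −0.33. Leaving out Empty 2 and 3 together gave −0.59 (adjusted p = 0.00982).

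VEGFA, the secreted angiogenic factor with which beta cells maintain islet capillaries, was higher (chromosome 6 from 43770184 to 43786487, plus strand, hg38). Its levels were 994, 844 and 819 CPM in Empty and 1046, 1058 and 1131 CPM in sgZHX3-3, and per exon length it ranked 2 of the 44 genes. Empty 1 lay between Empty 2 and 3 and the other group. The log2 fold change of 0.28 (SE 0.0702, edgeR adjusted p = 0.0207) did not pass on dropping Empty 2 (0.103), Empty 3 (0.116), sgZHX3-3 library 2 (0.0704) or sgZHX3-3 library 3 (0.0756). With Empty 2 and 3 both left out it was 0.12 (0.503).

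The remaining hypoxia targets did not pass. The mitophagy receptor BNIP3 was at 93.6, 90.8 and 92.1 CPM in Empty and 84.9, 81.6 and 82.0 CPM in sgZHX3-3 (log2 fold change −0.15, SE 0.0513, edgeR adjusted p = 0.068), and passed with library totals alone (−0.19, 0.0298). NDRG1, a stress-responsive gene, was at −0.12 (0.211) and passed with the length and GC trends removed (−0.18, 0.0144). ANKRD37 was at 2.15 to 2.93 CPM in Empty and 2.54 to 3.19 CPM in sgZHX3-3 (0.20, 0.449). CA9, the membrane carbonic anhydrase often used as a hypoxia marker, had 4, 3 and 1 counts in Empty and 2, 1 and 7 in sgZHX3-3 and was not tested.

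**Figure D4:**
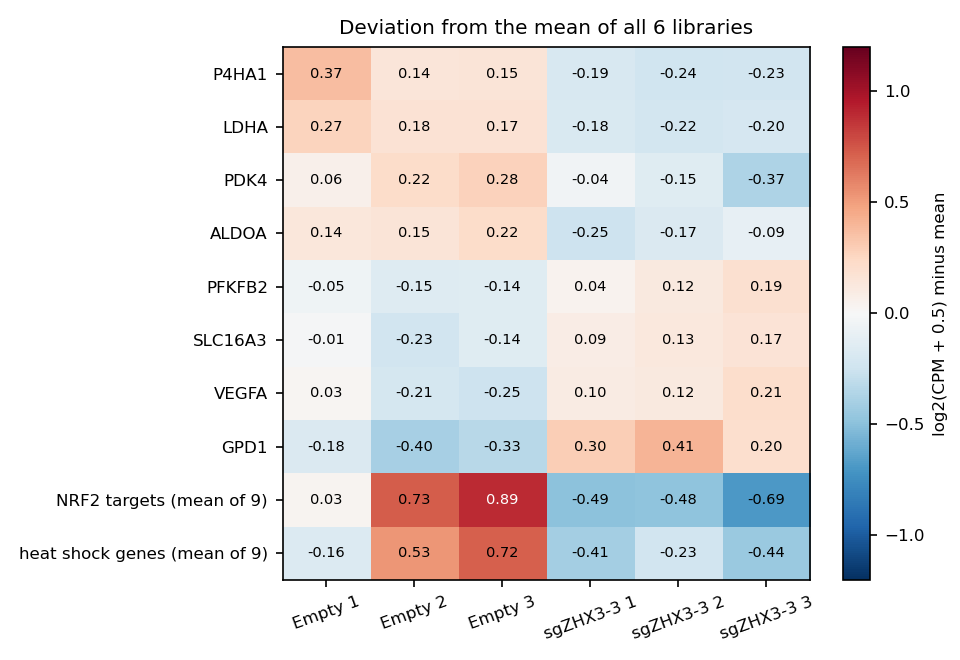
Deviation of each library (columns) from the mean of all 6 in log2(CPM + 0.5), for the 8 called genes and for the mean over 9 NRF2 targets and over 9 heat shock genes (rows). Empty 1 is the farthest from sgZHX3-3 for P4HA1 (0.37) and LDHA (0.27), whereas for VEGFA it lies at 0.03 with Empty 2 and 3 at −0.21 and −0.25.

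The 8 called genes fell into different patterns over the Empty libraries. For P4HA1 and LDHA the library Empty 1, with NRF2 targets at 0.03 against 0.73 and 0.89 log2 units in Empty 2 and 3, was the one farthest from sgZHX3-3. PDK4, VEGFA, SLC16A3, PFKFB2, GPD1 and ALDOA had Empty 1 nearest to sgZHX3-3, and so did both stress lists. For ALDOA the margin was small, with Empty at 0.14, 0.15 and 0.22. The part of these stress genes in the results was not tested.

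In 4 lists of neighbouring metabolic genes at most 1 gene each passed (0% to 14.3% of a list, beside the background of 12.1%). In the rest of glycolysis edgeR called 1 of 14 tested genes lower and none higher, namely BPGM, which makes the haemoglobin ligand of red cells (log2 fold change −0.40, edgeR adjusted p = 0.0102). Leaving out Empty 2 (0.0693), Empty 3 (0.0528) or sgZHX3-3 library 2 (0.0557) ended the call of BPGM. None of 18 citric acid cycle genes passed with edgeR, DESeq2 or limma-voom, with a list median of 0.02 and a range of −0.15 to 0.12; 2 were below an unadjusted p of 0.05. Of 7 genes of the malate-aspartate shuttle, which does the same work as the glycerol phosphate shuttle, the carrier SLC25A13 was higher (0.18, 0.0411), and it lost the call when Empty 2 (0.0743), Empty 3 (0.176), sgZHX3-3 library 1 (0.103) or library 2 (0.169) was left out.

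Among 10 other pyruvate enzymes edgeR called 1 lower and none higher. This was the malic enzyme ME1, a producer of NADPH and a known NRF2 target. ME1 was at 24.4, 34.8 and 35.6 CPM in Empty and 19.1, 19.0 and 18.1 CPM in sgZHX3-3 (log2 fold change −0.76, SE 0.121, edgeR adjusted p = 0.00258). It was highest in Empty 2 and 3, as the NRF2 list was, and with these left out it was at −0.38 (0.0983).

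Further targets of the hypoxia-inducible factors were also split. Of 25 tested, 2 were higher and 4 lower (24.0% called, beside 12.1% of all genes tested, of which 7.11% were higher and 4.98% lower), with a list median of 0.02. The adenylate kinase AK4, at 2.65, 2.79 and 2.63 CPM in Empty and 1.52, 1.44 and 1.59 CPM in sgZHX3-3, was lower (log2 fold change −0.82, SE 0.147, edgeR adjusted p = 0.00388), and its value was −0.80 (0.116) with Empty 2 and 3 both left out. The MYC antagonist MXI1 was at −0.47 (0.00796), and at 0.0544 without sgZHX3-3 library 2. TMEM45A was at −0.45 (0.0139) but missed the threshold if Empty 3 (0.0855) or sgZHX3-3 library 2 (0.0844) was dropped. The peptide hormone gene ADM, at 8.79, 11.8 and 15.3 CPM in Empty and 5.68, 6.36 and 7.85 CPM in sgZHX3-3, was at −0.84 (0.0175), and at −0.40 (0.338) with Empty 2 and 3 both left out. It also missed the threshold without Empty 2 alone (0.0601) or sgZHX3-3 library 2 (0.0819).

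The higher ones were the collagen lysyl hydroxylase PLOD1 (log2 fold change 0.29, edgeR adjusted p = 0.0175) and the mTOR inhibitor DDIT4 (0.23, 0.0252), the latter named after its value was seen. For PLOD1 the call ended on dropping Empty 2 (0.084), Empty 3 (0.103), sgZHX3-3 library 2 (0.0719) or library 3 (0.0583), and the value was at 0.18 (0.408) without Empty 2 and 3. That of DDIT4 ended on dropping Empty 2 (0.0953), Empty 3 (0.123), sgZHX3-3 library 1 (0.0761) or library 2 (0.131). The glucose transporter SLC2A1 was at 0.12 (0.147). Among 8 other oxygen-sensing genes none passed and 1, VHL, was below an unadjusted p of 0.05 (−0.15, adjusted p = 0.0555). DESeq2 called VHL and limma-voom called none. The transporter SLC2A3, listed at 0 in each library, has a near-identical copy in SLC2A14, so its value is uncertain.

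A further list held genes known to be kept low in beta cells. Of 12 tested genes of that list other than HK1, LDHA and SLC16A1, edgeR called 3 higher (25%, against 7.11% of all genes tested) and none lower; 5 of the 12 were below an unadjusted p of 0.05. The transcription factor MAF was at 40.4, 34.1 and 33.5 CPM in Empty and 50.3, 53.6 and 54.9 CPM in sgZHX3-3 (log2 fold change 0.56, edgeR adjusted p = 0.000669), and the chemokine CXCL12 was at 104, 83.0 and 84.8 CPM and 127, 125 and 133 CPM (0.50, 0.00166). IGFBP4 was at 0.33 (0.0169) and no longer passed on dropping Empty 2 (0.0893), Empty 3 (0.0527) or sgZHX3-3 library 2 (0.0984). In the whole list of 15 tested, edgeR called 1 gene lower, LDHA, while SLC16A1 passed in the 8 alternatives given above, DESeq2 and limma-voom among them. With Empty 2 and 3 both left out MAF was at 0.39 (0.0666) and CXCL12 at 0.30 (0.1).

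**Figure D5:**
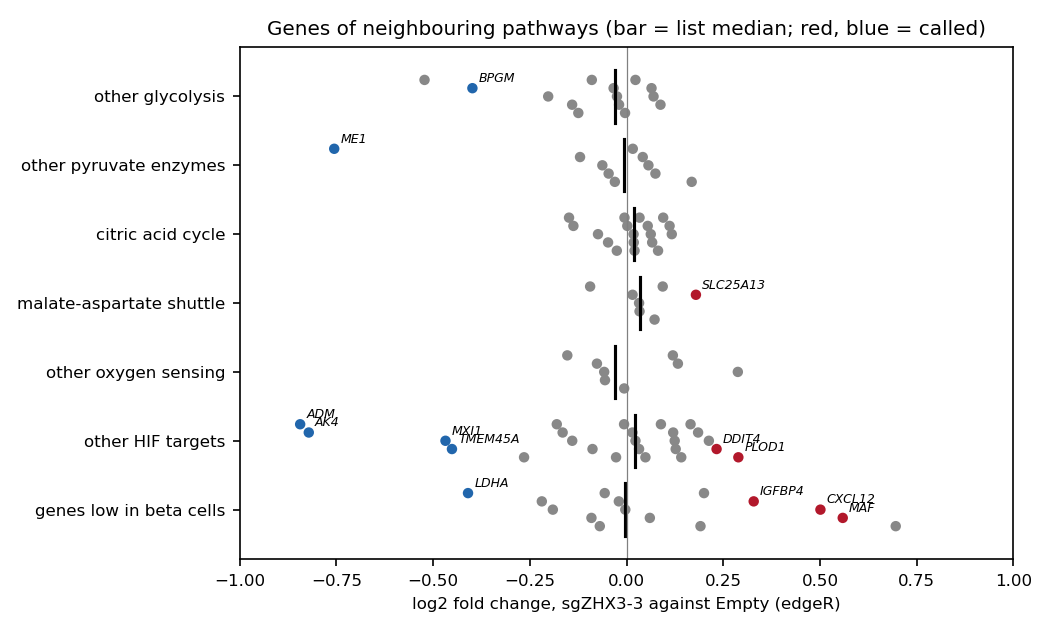
Log2 fold change (horizontal axis, sgZHX3-3 against Empty) of the tested genes of 7 further lists (points), with the list median as a bar; red and blue points passed the edgeR test. The medians lie between −0.03 and 0.03, and the called genes are labelled.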

How the data were processed

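The 6 libraries came from total RNA and a strand-keeping NEBNext Ultra Directional preparation (labels' protocols). The submitters' processing notes name STAR, featureCounts and hg38. Versions, annotation, strand setting and multi-match handling: not given in the sources used here. Whole-number counts for each symbol, unnormalised, are what the authors deposited. The table's Ctrl columns were taken as the Empty libraries, the only controls, and letters a to c as replicates.

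Genes were kept by filterByExpr of edgeR (minimum count 10, minimum total 15; 16199 genes) and scaled by TMM. Groups were compared by the robust quasi-likelihood test of edgeR with no term but group, Benjamini-Hochberg adjustment over all genes and a threshold of 0.05. The common biological coefficient of variation was 6.91%. CPM values use TMM library sizes, and length-scaled levels divide CPM by the exon union of coding transcripts in GENCODE 29 (GRCh38), whose transcripts need not be those counted. The procedure was tested on simulated counts, drawn independently for each library and without the difference of Empty 1 from Empty 2 and 3. That test therefore says nothing about calls that depend on those libraries. Replicate numbers did not pair the libraries (same-number correlations of deviations −0.138, 0.0685 and −0.142), so the replicate block is only an alternative. Other alternatives were RLE factors, library totals, no filter, 1 CPM in 3 libraries, DESeq2, limma-voom, offsets for transcript length and GC content, an adjusted p below 0.01, each library left out, and Empty 2 and 3 left out together. The members and lists were chosen with earlier results of these data known. All 44 members, ZHX3, cell type markers and, in each other list, up to 5 called genes with the smallest adjusted p could be named, some of which are not reported here; DDIT4, SLC2A1, SLC2A3, VHL and the genes overlapping members were named after their values were seen. Software was edgeR 4.0.16, DESeq2 1.42.0 and limma 3.58.1 under R 4.3.3, with Python 3.11.15 and matplotlib 3.10.9.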

Additional observations from a re-analysis of the deposited data

How the results depend on the processing

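The 4 higher and 4 lower genes of the 44 were counted again under 16 alternatives. The higher count was 1 with the replicate block, 1 at an adjusted p below 0.01, 0 with Empty 2 and 3 left out together and 1 to 6 with single libraries left out; the lower count was 7 with library totals only, 7 with the length and GC offset, 2 with Empty 2 and 3 left out together and 3 to 5 with single libraries left out. The other alternatives gave 3 to 5 higher and 3 to 5 lower genes. Equal counts need not hold the same genes: with the length and GC offset LDHB and PDK3 were called higher, and PFKFB2 and SLC16A3 were not. All 8 called genes kept their sign in every alternative, LDHA and P4HA1 kept their call in all 16, and the 35 uncalled genes included 8 that passed in at least 1 alternative and 16 whose sign changed in at least 1. Over all genes, 1151 were higher and 807 lower; these were 516 and 239 with the replicate block, 467 and 194 at an adjusted p below 0.01, and 209 and 40 with Empty 2 and 3 left out together. Library totals only gave 1272 lower genes. With single libraries left out the counts ranged from 474 to 1792 higher and from 184 to 1499 lower, the lowest without Empty 3 and the highest without Empty 1. No library correlated best with the one of its own number, so a call lost under the block does not show a weaker effect. ZHX3 passed in each alternative. Of 26 isoenzyme shares, 15 moved by more than 1 SD when the longest coding transcript gave the length, an alternative added after the data were seen. At HK2, EGLN3 and CA9 the depth limits what can be seen: their standard errors or counts allow changes as large as those called elsewhere.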
